A study of Danio rerio with 2 samples.

Results

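The genes described here are those of the proteins of the cytosolic ribosome, as transcribed in the adult zebrafish ovary with and without *sox3*. They were taken by name from the deposited table: symbols that begin with rpl or rps followed by a digit, or with rpsa, rplp0, rplp1 or rplp2, without the RPS6K kinases. This rule took 84 of the 22328 listed genes, 47 of the large subunit, 36 of the small subunit, and *rps19bp1*, whose product binds a ribosomal protein and is not part of the ribosome. The 10 kinase genes left out belong to a family whose S6 kinase members phosphorylate ribosomal protein S6. Symbols come from a table of gene IDs and often are those of the human match, in capitals, so that *RPS4Y2*, *RPSA2* and *RPL36AL* stand for zebrafish genes of proteins S4, SA and L36a. Proteins L27a, L37a, L41 and S20 had no ID under their names and were not analysed here.

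RNA from ovaries of 3 adult *sox3*-/- fish and of 3 adult wild-type fish, all of the AB strain, was made into 1 library per genotype, called KO and WT in the labels. Mutants carry frame-shift deletions made with CRISPR/Cas9, and which of the mutant lines gave the KO library is not stated. The values are FPKM, read counts scaled to transcript length and library size, so that levels of different genes can be set side by side. How far short transcripts, or reads shared between like genes, affect single levels was not tested. With 1 library per genotype no difference has a replicate check, and no p-value is given. The number of reads behind each value is unknown, so no error of counting is given, and 1 library per genotype gives none between fish.

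The targeted gene *sox3* (SOX3, ENSDARG00000053569) had 2.16 FPKM in the library labelled KO and 1.18 FPKM in the library labelled WT, a log2 ratio of 0.82. The targeted gene was thus not lower in the library labelled KO. Both values are low, close to the filter of 1 FPKM, and come from 1 library per genotype, so this level does not settle the labels. Why it was not lower was not tested. Both libraries are called by their labels throughout, and every direction given here is that of the labels. Oocyte genes were abundant in both libraries: *ZAR1*, whose product acts at the oocyte-to-embryo transition, had 934.38 FPKM in the library labelled KO and 928.35 FPKM in the library labelled WT, and all 9 matched oocyte markers lay within 1.4-fold between the libraries. Defining markers of follicle somatic cells were low, with *CYP19A1* at 1.12 and *FSHR* listed at 0.01 FPKM in the library labelled KO, and *CYP19A1* at 2.04 and *FSHR* at 0.07 FPKM in the library labelled WT. Of the 6 follicle markers at 1 FPKM or more, 4 were at least 1.4-fold lower and 1 at least 1.4-fold higher in the library labelled KO, with summed levels of 59.3 FPKM there and 47.9 FPKM in the library labelled WT, most of it *CYP17A1*, at 48.96 FPKM in the library labelled KO and 30.73 FPKM in the library labelled WT. Summed leukocyte markers had 9.45 FPKM in the library labelled KO and 8.32 FPKM in the library labelled WT, summed stroma and vessel markers 15.5 FPKM in the library labelled KO and 14.3 FPKM in the library labelled WT, and the hemoglobin gene *hbaa1* 23.05 FPKM in the library labelled KO and 12.8 FPKM in the library labelled WT. Within the sums, markers went both ways. Lower in the library labelled KO were 1 of the 4 leukocyte and 2 of the 4 stroma and vessel markers at 1 FPKM or more. For the libraries labelled KO and WT, *lyz* had 1.48 and 0.49 FPKM and *LCP1* 0.81 and 1.1 FPKM. In the same order, *kdrl* had 2.21 and 0.99 FPKM and *col1a1a* 5.05 and 6.68 FPKM. Their part in what follows was not tested. In such whole tissue, fewer cells of a type and less RNA per cell cannot be told apart.

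The cytosolic ribosome joins a small subunit, which reads the mRNA, with a large subunit, which forms peptide bonds and releases the chain through a tunnel. Each ribosome holds a single copy of nearly every ribosomal protein, while the acidic stalk proteins P1 and P2 are present as pairs. The mRNAs of these proteins commonly begin with a pyrimidine tract that places their translation under control of the kinase mTOR. A growing fish oocyte lays down the ribosomes that the embryo uses before its own genome is active.

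Ribosomal protein genes were slightly but very regularly lower in the library labelled KO. Their median log2 ratio was -0.16, and 75 of the 82 genes that reached 1 FPKM in at least 1 library were below 0. The summed level of these genes was 20675.0 FPKM in the library labelled KO and 23290.2 FPKM in the library labelled WT, a ratio of 0.888. The 84 genes together made up 3.73% of all FPKM in the library labelled KO and 4.07% in the library labelled WT. Of the 82 genes, 74 reached 100 FPKM in each library, and 61 in the library labelled KO and 62 in the library labelled WT were among the 500 most abundant genes.

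Ratios were computed as log2 of KO over WT after adding 0.1 FPKM to both values, which hardly changes genes of this level. Among the 13455 genes of the whole table that reached 1 FPKM in at least 1 library, 52.2% were lower in the library labelled KO, with a median of -0.02. Among the 909 genes with 100 FPKM or more, a closer background for such abundant transcripts, 61.7% were lower and the median was -0.05. The 909 include members, and of the 835 other genes 58.9% were lower, with a median of -0.04. The members at that level were lower in 69 of 74 cases, or 93.2%, with a median of -0.17. At least 1.1-fold lower were 51 of the 82 members, or 62.2%, against 38.4% of all genes at 1 FPKM or more and 35.3% of those at 100 FPKM or more. Among the 74 members at 100 FPKM or more the share was 68.9%, and among the 835 other genes at that level 32.3%. Only 1 member was at least 1.1-fold higher, while this was so for 34.2% of all genes at 1 FPKM or more and 21.0% of those at 100 FPKM or more. The differences were small in size. At least 1.4-fold lower was 1 of the 82 members and at least 1.4-fold higher was none, while all genes at 1 FPKM or more gave 17.5% and 15.1%, and those at 100 FPKM or more 7.48% and 5.06%. The 1.1-fold threshold ran between *RPL18*, just inside at -0.14, and *RPL31*, just outside at -0.13, so the count of 51 depends on where it is set. With both libraries scaled to the same total FPKM, the count at least 1.1-fold lower was 33. The shares of all genes given above are without that scaling and were not recomputed, so 33 cannot be set against them. Past the 1.4-fold threshold lay only *rplp2l* at -0.55, and *RPS12* lay just outside at -0.46.

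**Figure D1:**
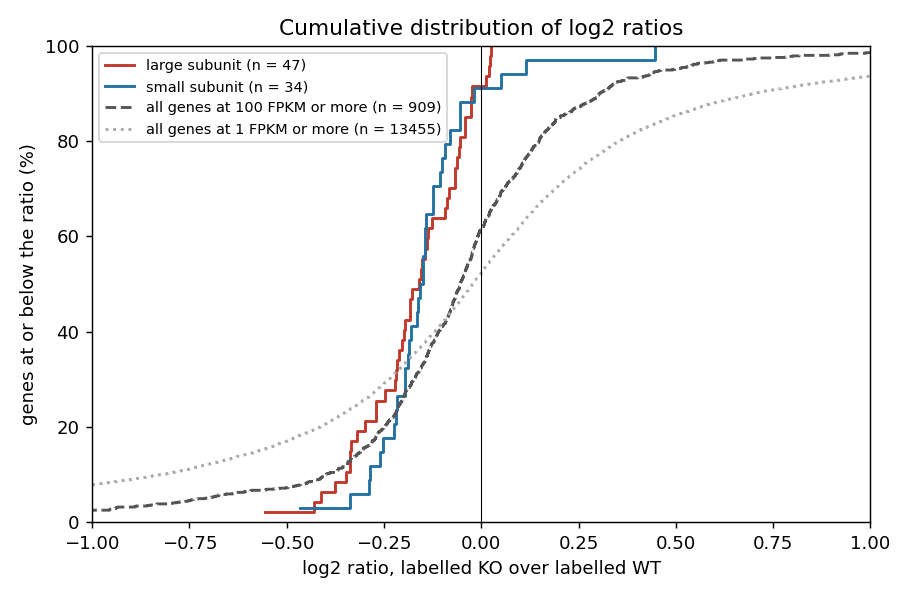
Cumulative share of genes (vertical axis, %) at or below each log2 ratio of the library labelled KO over the library labelled WT (horizontal axis). The curves of the large subunit (47 genes) and the small subunit (34 genes) have nearly the same medians, -0.16 and -0.15, differ more in their lower quartiles, -0.26 and -0.21, and reach 91.5% and 91.2% at 0, whereas 61.7% of the 909 genes at 100 FPKM or more are below 0.

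Large and small subunit genes had nearly the same median ratio, while the lower quartile was slightly lower in the large subunit. With 1 gene per protein, the lowest ratio was -0.43 in the large and -0.46 in the small subunit. That set leaves out *rplp2l*, at -0.55, as a named paralogue. The 47 genes of the large subunit had a median log2 ratio of -0.16 (quartiles -0.26 and -0.07), and 43 of them were lower in the library labelled KO. For the 34 genes of the small subunit at 1 FPKM or more, the median was -0.15 (quartiles -0.21 and -0.10), and 31 were lower. At least 1.1-fold lower were 29 of the 47 large subunit genes and 22 of the 34 small subunit genes. The difference of the medians, large minus small subunit, was -0.01 on the log2 scale. It was -0.02 with 1 gene per protein and -0.03 when means were taken in place of medians. The summed level of the large subunit was 12302.1 FPKM in the library labelled KO and 13875.2 FPKM in the library labelled WT. That of the small subunit was 8322.03 FPKM in the library labelled KO and 9362.98 FPKM in the library labelled WT. The sum of the large subunit over that of the small subunit was therefore 1.48 in each library.

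Over these 47 and 36 genes the ratio of gene numbers was 1.31, and that of the mean levels per gene was 1.13 in the library labelled KO and 1.14 in the library labelled WT. With 1 gene per protein, the more abundant where an exact name had several, and without names of paralogues, 43 large and 30 small subunit genes remained, a ratio of numbers of 1.43. Their summed levels had a ratio of 1.49 in each library. The mean level per gene was then 276 FPKM for the large and 265 FPKM for the small subunit in the library labelled KO, a ratio of 1.04. In the library labelled WT these means were 311 and 299 FPKM, with a ratio of 1.04 again. The medians were 249.8 FPKM for the large and 240.9 FPKM for the small subunit in the library labelled KO, and 298.9 and 267.5 FPKM in the library labelled WT. The large subunit median thus exceeded that of the small subunit by a factor of 1.04 in the library labelled KO and 1.12 in the library labelled WT.

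Although most of these proteins are needed in equal numbers, their transcripts were not equally abundant. Across the 73 genes with 1 gene per protein, levels spanned 35.04 to 548.74 FPKM in the library labelled KO, a factor of 15.7, and 37.4 to 755.3 FPKM in the library labelled WT, a factor of 20.2. The lowest of these in both libraries was *rplp2*, because the more abundant *rplp2l* is left out there as a named paralogue. *RPL38* came next, with 44.92 FPKM in the library labelled KO and 45.77 FPKM in the library labelled WT. The order of the genes was almost the same in both libraries, with a Spearman rho of 0.99 over the 82 genes at 1 FPKM or more. These values share library preparation and gene models, and the correlation is a description across genes, which are not independent replicates. Over all 13455 genes at 1 FPKM or more rho was 0.95, and over all 909 genes at 100 FPKM or more it was 0.90.

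**Figure D2:**
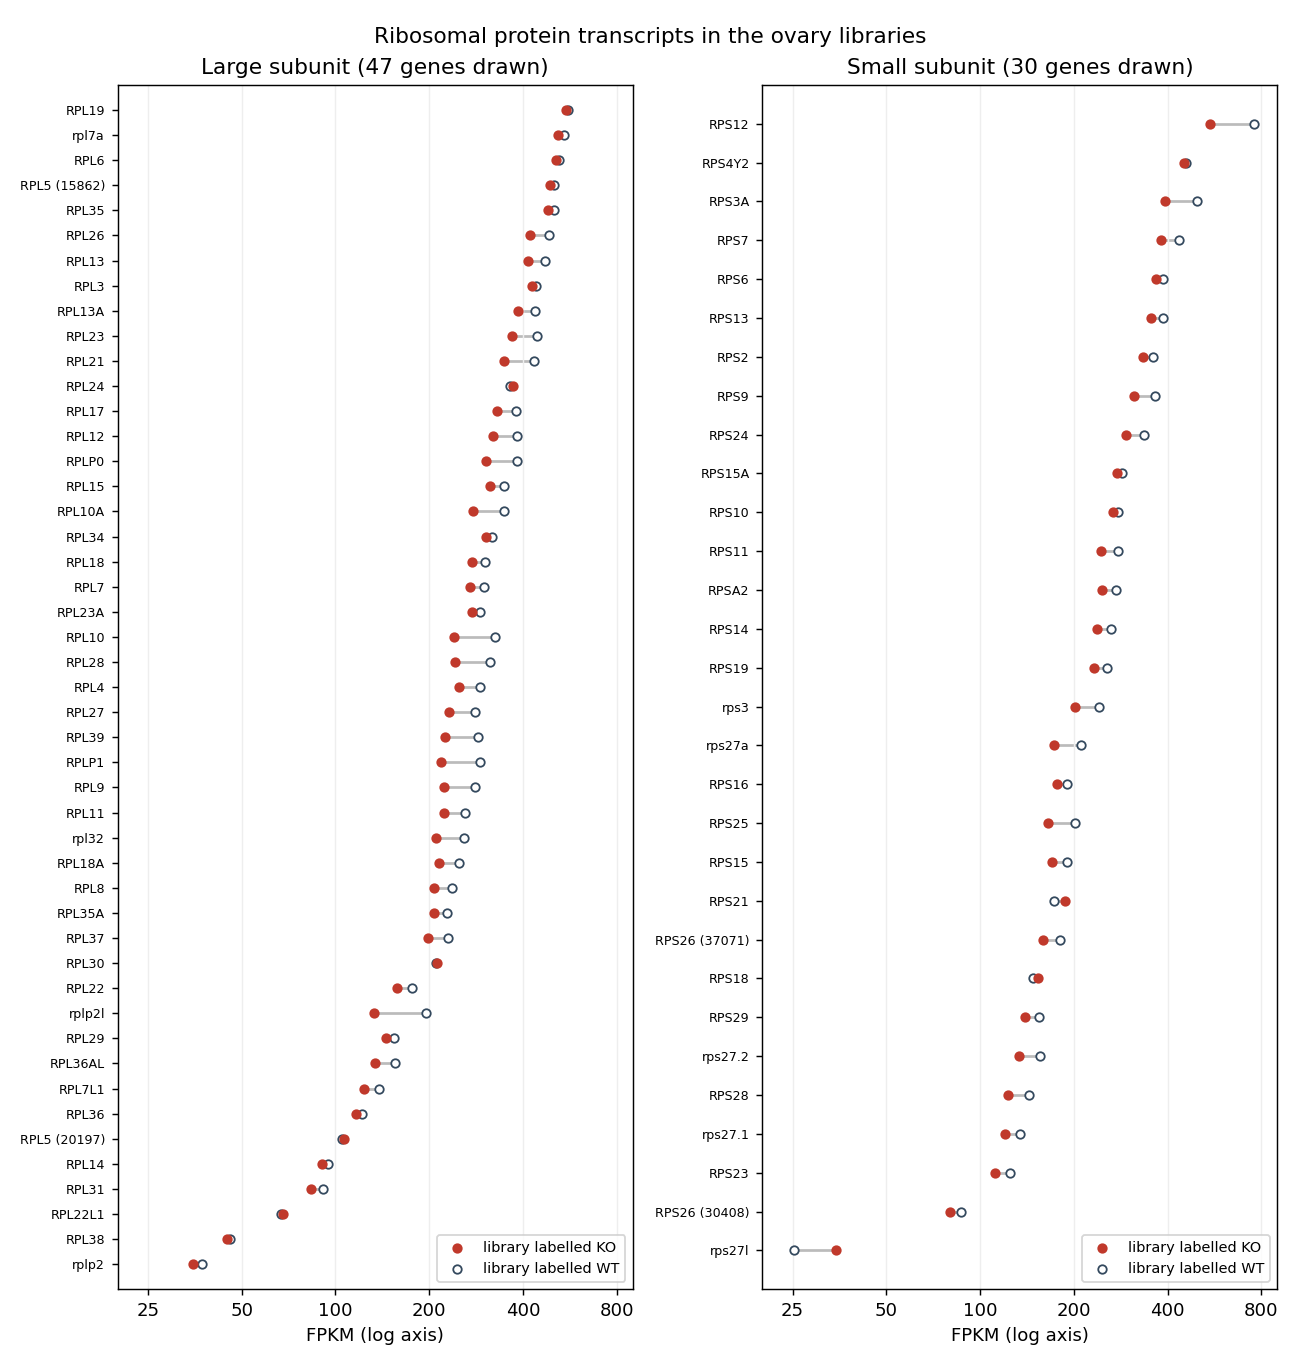
FPKM of ribosomal protein genes at 1 FPKM or more (horizontal log axis), with large subunit genes in the left panel and small subunit genes in the right panel, ordered by mean level. Filled points stand for the library labelled KO and open points for the library labelled WT, and numbers in brackets are the last digits of the gene ID where a symbol has several genes. The filled point lies left of the open point for 43 of the 47 large and 27 of the 30 small subunit genes drawn. Another 4 small subunit genes at that level are not drawn.

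The most abundant large subunit transcripts were nearly level between the libraries. *RPL19*, which forms part of a bridge to the small subunit, had 548.74 FPKM in the library labelled KO and 557.7 FPKM in the library labelled WT. *rpl7a* had 516.63 FPKM in the library labelled KO and 541.1 FPKM in the library labelled WT, and *RPL6* had 511.79 FPKM in the library labelled KO and 521.34 FPKM in the library labelled WT. The other gene among the 5 most abundant is *RPL5*, described with the 5S particle. *RPL35*, at the mouth of the exit tunnel, had 482.47 FPKM in the library labelled KO and 501.79 FPKM in the library labelled WT. These 4 genes had log2 ratios from -0.07 to -0.02, closer to 0 than the median of the subunit.

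At the low end of the large subunit stood *rplp2*, with 35.04 FPKM in the library labelled KO and 37.4 FPKM in the library labelled WT. *RPL38*, which in the mouse is required for the translation of a subset of Hox mRNAs, had 44.92 FPKM in the library labelled KO and 45.77 FPKM in the library labelled WT. *RPL22L1* had 68.12 FPKM in the library labelled KO and 67.05 FPKM in the library labelled WT. *RPL31* had 83.52 FPKM in the library labelled KO and 91.17 FPKM in the library labelled WT, and *RPL14* had 90.83 FPKM in the library labelled KO and 94.39 FPKM in the library labelled WT. None of these 5 genes differed by as much as 1.1-fold.

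In the small subunit *RPS12* led in both libraries, and it had the largest absolute difference of any member. It was at 547.3 FPKM in the library labelled KO and at 755.3 FPKM in the library labelled WT, a log2 ratio of -0.46. In Drosophila, RpS12 is known for its part in the competition between cells with unequal ribosomal protein gene dose. *RPS4Y2* was at 451.78 FPKM in the library labelled KO and 457.64 FPKM in the library labelled WT, with a log2 ratio of -0.02. *RPS3A*, a protein near the mRNA exit side of the subunit, differed more, with a log2 ratio of -0.34, at 392.3 FPKM in the library labelled KO and 495.35 FPKM in the library labelled WT. *RPS12* and *RPS4Y2* thus mark the range of ratios among abundant small subunit genes.

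At the low end of the small subunit were *rps27l*, the second *RPS26* gene, and *RPS23*, a protein of the decoding centre. *RPS23* had 111.54 FPKM in the library labelled KO and 125.13 FPKM in the library labelled WT. *RPS28*, at the mRNA exit, had 122.78 FPKM in the library labelled KO and 143.4 FPKM in the library labelled WT. Below 1 FPKM in both libraries were 2 small subunit members, which count in none of the median ratios. Of these, *rps11l* was listed at 0.01 FPKM in the library labelled KO and 0.22 FPKM in the library labelled WT.

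The P stalk, the flexible arm of the large subunit that recruits elongation factors, held several of the lowest ratios. *rplp2l*, a gene for a P2-like protein, had 133.28 FPKM in the library labelled KO and 195.81 FPKM in the library labelled WT. Its log2 ratio of -0.55 was the lowest of the 82 and the only one past 1.4-fold. *RPLP1* had 219.05 FPKM in the library labelled KO and 291.6 FPKM in the library labelled WT, with a log2 ratio of -0.41. *RPLP0*, which anchors the P1 and P2 proteins to the ribosome, had 303.8 FPKM in the library labelled KO and 383.73 FPKM in the library labelled WT, with a log2 ratio of -0.34. The exception was *rplp2*, with a log2 ratio of -0.09. Summed over these 4 genes the level was 691 FPKM in the library labelled KO and 909 FPKM in the library labelled WT, a ratio of 0.761. *RPL12*, at the base of the stalk, had 321.67 FPKM in the library labelled KO and 382.1 FPKM in the library labelled WT, a log2 ratio of -0.25. Without the 4 stalk genes the median of all other members was -0.15.

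Other large subunit genes had ratios near those of *RPLP1* and *RPLP0*. *RPL10*, whose protein joins the subunit late in its maturation and lies near the peptidyl transferase centre, had 240.7 FPKM in the library labelled KO and 324.2 FPKM in the library labelled WT. *RPL28*, a protein without a bacterial counterpart, had 241.7 FPKM in the library labelled KO and 313.58 FPKM in the library labelled WT. *RPL39*, a very short protein in the wall of the exit tunnel, had 225.42 FPKM in the library labelled KO and 286.72 FPKM in the library labelled WT. Their log2 ratios were -0.43, -0.38 and -0.35. *RPL10A*, of the L1 stalk by which the spent tRNA leaves, was at 276.53 FPKM in the library labelled KO and 348.76 FPKM in the library labelled WT, with a log2 ratio of -0.33. The other tunnel genes were closer to the median of the subunit, with *RPL4* at a log2 ratio of -0.22 and *RPL17* at one of -0.20. *RPL9* had 222.55 FPKM in the library labelled KO and 281.08 FPKM in the library labelled WT, a log2 ratio of -0.34. Within the peptidyl transferase centre the genes differed among themselves, with *RPL10* at -0.43, *RPL8* at -0.18 and *RPL3* at -0.04.

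The proteins of the 5S particle, which carry 5S rRNA into the large subunit, differed among themselves. *RPL5* (ENSDARG00000015862) had 489.24 FPKM in the library labelled KO and 503.37 FPKM in the library labelled WT, and the second *RPL5* gene (ENSDARG00000020197) had 106.77 FPKM in the library labelled KO and 105.29 FPKM in the library labelled WT. *RPL11* had 223.54 FPKM in the library labelled KO and 260.9 FPKM in the library labelled WT, a log2 ratio of -0.22. Oocytes store 5S rRNA bound to transcription factor IIIA, and the gene under *GTF3A* with the higher level had 542.56 FPKM in the library labelled KO and 519.78 FPKM in the library labelled WT. *RRS1*, an assembly factor of the particle, had the highest ratio of the genes listed with it, at 0.07. Free L5, L11 and L23 proteins bind MDM2, the ligase of p53. *RPL23* had 367.77 FPKM in the library labelled KO and 443.73 FPKM in the library labelled WT, a log2 ratio of -0.27.

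Genes of functional sites in the small subunit were mostly lower too. Of the proteins at the mRNA entry, *RPS2* had a log2 ratio of -0.10, *RPS9* one of -0.22 and *rps3* one of -0.25. The 5 genes listed for the mRNA exit, without *RPS3A* at -0.34, ranged from -0.22 to -0.12, and among them *RPS14* had 237.97 FPKM in the library labelled KO and 262.58 FPKM in the library labelled WT. Of the proteins at the decoding centre or in contact with tRNA, *RPS15* had a log2 ratio of -0.16 and *RPS23* one of -0.17. *RPS18* was above 0, with 153.1 FPKM in the library labelled KO and 147.89 FPKM in the library labelled WT. *RPS6*, the substrate of the S6 kinases, had 365.79 FPKM in the library labelled KO and 386.7 FPKM in the library labelled WT, a log2 ratio of -0.08. Genes whose human counterparts are mutated in Diamond-Blackfan anemia, such as *RPS19* at 231.31 FPKM in the library labelled KO and 255.57 FPKM in the library labelled WT, had a median of -0.18 over 13 genes, and 12 of these were lower.

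Only 7 members were higher in the library labelled KO, and 6 of them by less than 1.1-fold. *rps27l* (ENSDARG00000100513) stood apart, with 34.39 FPKM in the library labelled KO and 25.2 FPKM in the library labelled WT, a log2 ratio of 0.45. Its human counterpart RPS27L is a paralogue of RPS27 and is known as a target of p53. *rps27l* was also the least abundant of the 82 genes in the library labelled KO and in the library labelled WT. *RPS21* had 187.36 FPKM in the library labelled KO and 173.08 FPKM in the library labelled WT, a log2 ratio of 0.11. *RPL24*, which bridges the subunits as *RPL19* does, had 370.94 FPKM in the library labelled KO and 364.69 FPKM in the library labelled WT. With *RPS18*, *RPL30*, *RPL22L1* and the less abundant *RPL5* gene, which lay between 0.01 and 0.05, this completes the group. When both libraries were scaled to the same total FPKM, 68 of the 82 genes were below 0 instead of 75. The share of all genes below 0 was not recomputed with that scaling.

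**Figure D3:**
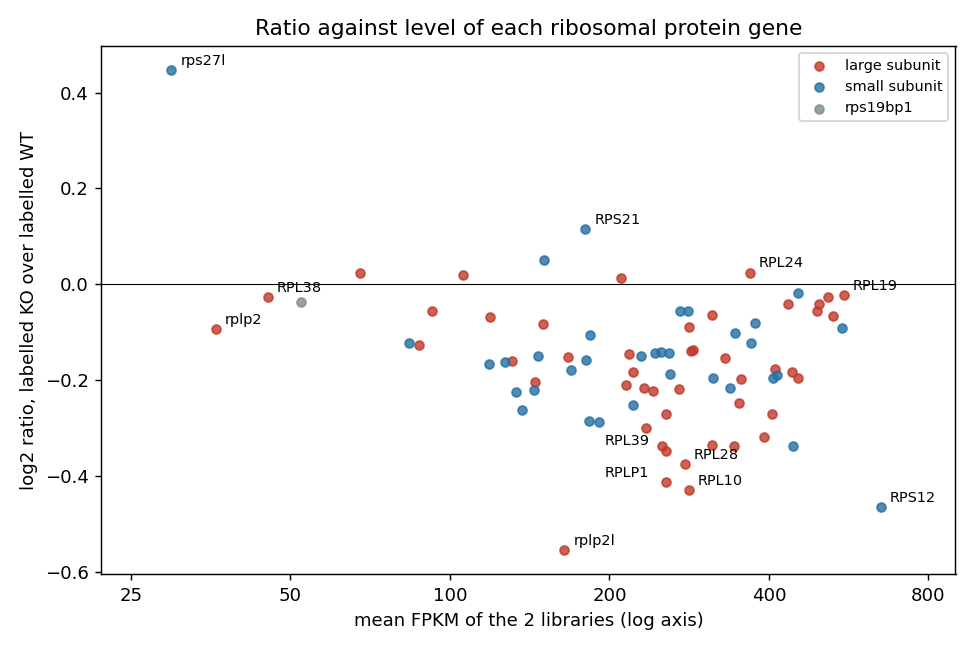
Log2 ratio of the library labelled KO over the library labelled WT (vertical axis) against the mean FPKM of the libraries (horizontal log axis) for the 82 genes at 1 FPKM or more, 1 point per gene. Most points lie between -0.35 and 0, *rps27l* stands alone at 0.45, and *rplp2l*, *RPS12* and *RPL10* are lowest at -0.55, -0.46 and -0.43.

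The size of the difference did not follow the level of the gene in a simple way. The 27 genes of lowest mean level had a median log2 ratio of -0.13, the 28 genes of middle level one of -0.20 and the 27 genes of highest level one of -0.18. Over all 82 genes, Spearman's rho between mean level and ratio was -0.11, a description in which level and ratio come from the same pair of values. Genes at least 1.1-fold lower numbered 13 of 27, 23 of 28 and 15 of 27 in these groups.

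Several proteins are encoded by more than 1 gene, and the pairs kept nearly the same proportions in both libraries. The more abundant *RPL5* gene held 82.1% of the pair in the library labelled KO and 82.7% in the library labelled WT. For S26 the more abundant gene held 66.5% in the library labelled KO and 67.4% in the library labelled WT. The genes *rps27.1* and *rps27.2* were almost equal to each other, with *rps27.2* holding 52.6% of their sum in the library labelled KO and 53.6% in the library labelled WT. Copies with like sequences may share short reads, so a split between them is uncertain, while the sums are less so.

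Paralogues with names of their own varied more, except *RPL7* and *RPL7L1*. *RPL22* was 2.32 times as abundant as *RPL22L1* in the library labelled KO and 2.62 times in the library labelled WT, where *RPL22* itself had 157.96 FPKM in the library labelled KO and 175.57 FPKM in the library labelled WT. *rplp2l* was 3.80 times as abundant as *rplp2* in the library labelled KO and 5.24 times in the library labelled WT. *rps27.2* was 3.87 times as abundant as *rps27l* in the library labelled KO and 6.16 times in the library labelled WT. *RPL7* was 2.19 times as abundant as *RPL7L1* in the library labelled KO and 2.16 times in the library labelled WT. *RPL7L1*, which acts in ribosome assembly in other vertebrates, had a log2 ratio of -0.16 and *RPL7* one of -0.14. The gene *rps19bp1*, taken by its name alone, had 51.63 FPKM in the library labelled KO and 52.99 FPKM in the library labelled WT.

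Ribosomal proteins with other names, which the rule does not take, lay in the same range. *RACK1*, a scaffold on the small subunit, had 479.49 FPKM in the library labelled KO and 554.92 FPKM in the library labelled WT, a log2 ratio of -0.21. *FAU*, whose product is cleaved to a ubiquitin-like protein and protein S30, had 91.71 FPKM in the library labelled KO and 105.03 FPKM in the library labelled WT. The fusion of ubiquitin with protein S27a, *rps27a*, which is a member, had 172.34 FPKM in the library labelled KO and 210.4 FPKM in the library labelled WT, a log2 ratio of -0.29.

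Other genes of translation did not show the same shift in their medians. The 10 genes of elongation factors at 1 FPKM or more had a median log2 ratio of -0.04, with 7 lower, against -0.16 for the ribosomal proteins. The 40 genes of initiation factors had a median of -0.02, with 22 lower. The 83 genes of ribosome biogenesis, which process rRNA and assemble the subunits, had a median of 0.01, with 38 lower. Median levels in the library labelled KO were 57.2 FPKM for biogenesis and 83.8 FPKM for initiation factors, against 231.8 FPKM for ribosomal proteins. Single genes of these lists differed more widely than any ribosomal protein gene, from the less abundant *SNU13* gene, for a small nucleolar RNA protein, at 10.52 FPKM in the library labelled KO and 19.1 FPKM in the library labelled WT, to an *EIF3E* gene at 21.7 FPKM in the library labelled KO and 5.09 FPKM in the library labelled WT. At the other ends of these lists were the rRNA methyltransferase gene *nop2*, with a log2 ratio of 0.58, and *EIF4H*, with one of -0.52. In the elongation factor list the ends were 2 genes of low level. *EEF1E1*, listed for its name only, was at -0.64, with 6.49 FPKM in the library labelled KO and 10.18 FPKM in the library labelled WT. The low *EEF1A1* gene was at 1.01, with 9.8 FPKM in the library labelled KO and 4.82 FPKM in the library labelled WT. The most abundant elongation factor gene, *eef1a1l1*, had 1202.23 FPKM in the library labelled KO and 1184.95 FPKM in the library labelled WT. Kinases of the RPS6K family went both ways, with *rps6kb1b*, an S6 kinase, at 62.56 FPKM in the library labelled KO and 42.71 FPKM in the library labelled WT, and *RPS6KA2* at 0.36 FPKM in the library labelled KO and 2.99 FPKM in the library labelled WT.

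Lists of mitochondrial function had medians at or below that of the cytosolic ribosome. The 73 genes of mitochondrial ribosomal proteins had a median log2 ratio of -0.21, and 57 were lower. Their spread was wider, with an SD over genes of 0.30 against 0.14 for the 82 cytosolic members, and with *MRPS24* at -0.79 and *MRPS7* at 1.00. Their median level was lower, at 34.0 FPKM in the library labelled KO and 40.9 FPKM in the library labelled WT. The cytosolic members had medians of 231.8 FPKM in the library labelled KO and 277.1 FPKM in the library labelled WT. The spreads are thus not compared at like levels. The 90 nuclear genes named after complexes of oxidative phosphorylation, assembly factors among them, had a median of -0.16, and 67 were lower. All 13 mitochondrially encoded genes were lower, with a median of -0.78, and they took 1.35% of all FPKM in the library labelled KO and 2.31% in the library labelled WT. With both libraries scaled to equal totals over all genes, the median of the ribosomal protein genes was -0.11 instead of -0.16. With these 13 genes left out of the totals it was -0.12. The 44 genes with names of proteasome genes had a median of -0.01, with 22 lower. Their highest ratios were those of *psmb12* and *PSMB9*, at 9.93 and 7.36 FPKM in the library labelled KO and 0.01 and 0.08 FPKM in the library labelled WT. No test of a difference between these lists was possible with 1 library per genotype.

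**Figure D4:**
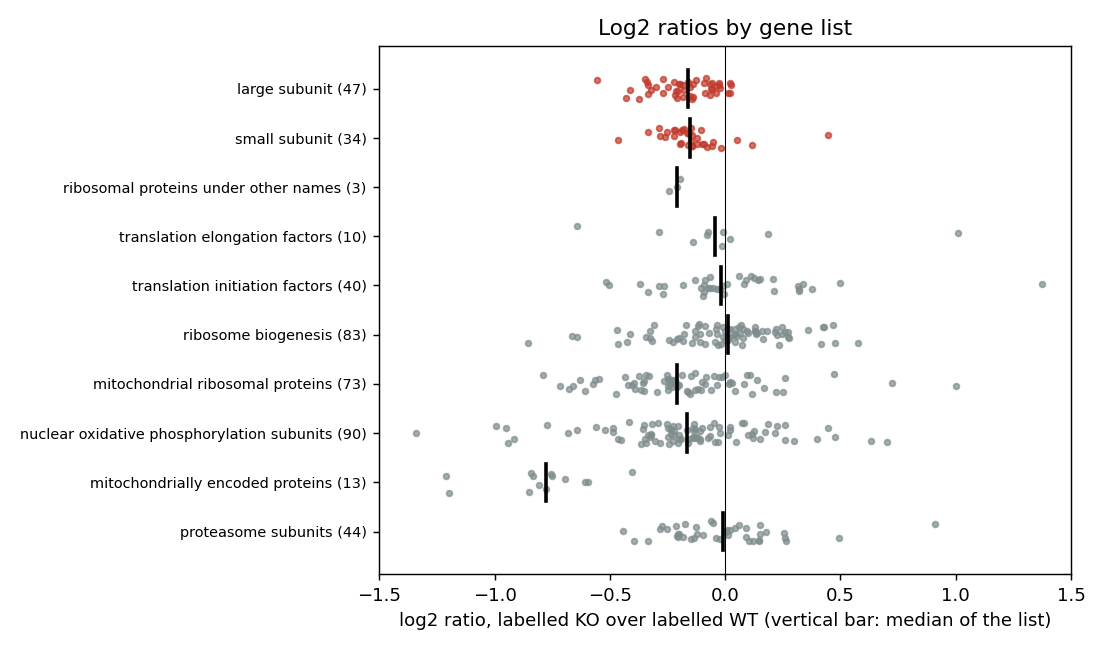
Log2 ratio of the library labelled KO over the library labelled WT (horizontal axis) for each gene at 1 FPKM or more in the lists named at the left, with the number of genes in brackets and a bar at the median. The 3 values outside -1.5 to 1.5, those of an *EIF3E* gene, *PSMB9* and *psmb12*, are not drawn. The points of the cytosolic ribosomal proteins are packed around -0.16 and -0.15, while those of biogenesis and initiation factors lie around 0.01 and -0.02 and spread more widely. Median levels of biogenesis and initiation factor genes are lower than those of the ribosomal proteins, so the spreads are not at like levels.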

How the data were processed

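Poly(A) RNA of adult zebrafish ovary was sequenced on a BGISEQ-500 in single-end mode. The deposited values are FPKM per gene, which the authors calculated with RSEM after mapping with HISAT and Bowtie2. The build in the submitters' processing notes is GRCz10, and no tool version was stated. Of 22328 IDs, 20336 had a symbol, and the smallest value was 0.01 FPKM.

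Log2 ratios were computed from FPKM plus 0.1 for genes reaching 1 FPKM in at least 1 library (Python 3.11.15, numpy 2.4.6, pandas 2.3.3, scipy 1.17.1, matplotlib 3.10.9). Genes were counted by direction and by folds of 1.1 and 1.4. The summaries were tested on simulated data. Names were matched exactly, otherwise in capitals, otherwise without a closing a or b. Members and lists were chosen with earlier results of these data known. The lists of oxidative phosphorylation, mitochondrially encoded genes and proteasome, and those of functional sites other than P stalk, 5S particle and exit tunnel, were added after values had been seen. By rule, *sox3*, the 5 highest and lowest members of each subunit, the 6 highest and lowest ratios, paralogues, members of the P stalk, 5S particle and tunnel, members under 1 FPKM and the extremes of most comparison lists were named. Others, among them *RPS6*, *RPS19*, *RPL12*, *RPL10A*, *rps27a*, *RACK1*, *eef1a1l1* and the markers, were named after their values were seen. Some genes were counted in sums and medians and are not reported here by name.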

Additional observations from a re-analysis of the deposited data

How the results depend on the processing

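Of 96 recomputed values, 86 stayed within 0.05 on the log2 scale or, for counts, within 1.5 times, and none changed sign. Some of these values could not move. The filter at 5 FPKM kept the same 82 genes, and a scaling shifts both subunits alike, so their difference stays the same. The tolerance of 0.05 is also wide beside a median of -0.16, so the tally is no measure of how firm the result is. The median of all members ran from -0.17 at 100 FPKM or more to -0.11 with the same column total, with no change of direction under the pseudocounts of 0.01 and 1 FPKM, the scalings and the other choices of members. The scalings moved all ratios by 0.02 to 0.05. Members at least 1.1-fold lower numbered 33 with the same column total, in place of 51. The shares of all genes were not recomputed under any scaling. The count at least 1.4-fold lower, 1, became 2 without a filter, 0 with 1 gene per protein, and, with thresholds chosen after seeing the data, 4 at 1.3-fold and 16 at 1.2-fold. The shares of all genes at 1.3-fold and 1.2-fold were not computed, so these 2 counts have no background beside them. The 0 arose because the set with 1 gene per protein leaves out *rplp2l* by its name and keeps the less abundant *rplp2*. The summed large over small subunit level, 1.48, was 1.15 in the library labelled KO and 1.21 in the library labelled WT when taken from median levels over all 47 and 36 genes, and 1.55 in the library labelled WT without the most abundant gene of each subunit. The share of all FPKM was 4.01% in the library labelled KO and 4.41% in the library labelled WT without the 10 most abundant genes. The alternatives without proteins shorter than 100 residues and without each replicate were not run, since no protein table was at hand and each genotype had 1 library. No paired analysis was possible because each genotype had 1 library.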
